A study of Mus musculus with 4 samples.

Results

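The strength of the signal from the T cell receptor (TCR) is set by a small group of proteins that act directly on it, and 9 genes of this kind were followed across thymic iNKT cell classes and across genotypes. They were chosen by symbol among the 31053 genes of the matrices, and each symbol matched 1 gene: the kinases Lck and Csk, the adaptor Themis, the phosphatases Ptpn22 and Ptpn6, the surface receptors Cd5 and Cd6, the ubiquitin ligase Cblb and the suppressor Ubash3a. iNKT cells are T cells that carry a nearly fixed TCR for lipids shown by CD1d, and they are selected in the thymus by a strong TCR signal from other thymocytes. LCK starts the TCR signal by phosphorylating the receptor complex, and CSK holds LCK in check. Phosphatases and ubiquitin ligases remove phosphates or active proteins from the complex, and surface receptors such as CD5 damp the signal. The same ligand can thus give a weaker or a stronger response. Newly selected iNKT cells are called stage 0, and they later become iNKT1, iNKT2 and iNKT17 cells, which make different cytokines.

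Single-cell transcripts were counted in thymic iNKT cells, sorted with a PBS57-CD1d tetramer, from 2 untreated wild-type C57BL/6 mice and from 2 untreated Hivep3-/- mice of the same strain, aged 8 to 9 weeks, with 1 library per mouse. All 4 samples were sorted at an equal mix of CD44low and CD44high cells, so the sort set part of the share of every class. The sources used here name no cell type or Cre driver to which the knockout is limited, and they do not name the deleted stretch of Hivep3, a zinc finger protein gene. The comparisons asked how these genes differ between developmental classes, between genotypes, and whether the genotype difference depends on the class.

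The libraries held 31381738 to 48291764 unique molecular identifiers (UMIs), each standing for 1 counted transcript, and 3651 to 7231 cells per library were kept. The median kept cell was shallower in C57BL/6, at 4596 and 5268 UMIs, than in Hivep3-/-, at 6833 and 6491. Xist was counted in C57BL/6 replicate 1, with 14609 UMIs, and at 3 to 25 UMIs in the other libraries, while Y-linked genes had 0 UMIs in that library and 3568 to 4879 in the others. The C57BL/6 libraries thus differed from each other in these genes. The study's results describe the C57BL/6 mice as female, which does not match the Y-linked counts of C57BL/6 replicate 2. Its methods state for the study as a whole that both sexes were used. Any 2 libraries shared 18 to 43 barcodes, at most 1.01% of the smaller library. Hivep3 was at 38.5 and 36.4 counts per 1000000 UMIs (CPM) in C57BL/6 and at 101 and 68.0 in Hivep3-/-; a count of 5' ends over the gene does not tell a disrupted transcript from an intact one, so it does not check the labels. Summed marker lists of other cells ran over the libraries from 126 to 161 CPM for B cells, 130 to 166 for myeloid cells, 19.7 to 35.7 for double positive thymocytes and 0.0222 to 0.0784 for erythroid cells. The thymic epithelium list was at 5.86 and 6.58 in C57BL/6 and at 20.5 and 22.7 in Hivep3-/-, and its part in any result was not tested.

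Cells were grouped into 15 clusters without using the 9 genes, the pathway lists below or Hivep3, and 12 of the clusters were named from marker genes. They made 5 classes: stage 0-like cells (Itm2a, Cldn10, Cd24a), cycling-like cells (Hells, Mcm3, Birc5), iNKT2-like cells (Il6ra, Il17rb), iNKT17-like cells (Il23r) and iNKT1-like cells (Klrd1, Klrb1c, Ccl5). The 3 clusters left unnamed held 13.3 to 15.3% of the cells of a library. Stage 0-like cells were 4.95 and 3.26% of the cells in C57BL/6 and 8.29 and 10.2% in Hivep3-/-, which gave 119 to 427 cells per library. Levels below are CPM of a library's cells in a class, on scaled library sizes, and they are compared within a gene, never between genes. A gene was called where the adjusted p of edgeR's quasi-likelihood test was under 0.05, with n = 2 libraries per genotype. Gene positions are on GRCm38. Ptpn22, Ptpn6, Cblb, Themis and Lck overlap other annotated genes, most of them antisense. Reads of antisense neighbours cannot be told apart where the counting does not use strand. Ptpn22 and Lck also overlap genes on their own strand, which strand does not separate.

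Promoters are shown for Cd5, Ptpn22 and Ubash3a, since for these genes and for Cd6 the genotype difference depended on the class, as described below. Each runs from 250 bases before to 50 bases after a RefSeq start (GRCm38.p6): Cd5 at chr19:10738925-10739224 on the minus strand, Ptpn22 at chr3:103859545-103859844 and, for a second start, at chr3:103860027-103860326, both on the plus strand, and Ubash3a at chr17:31207816-31208115 on the plus strand. Capitals mark matches on either strand to CAGGTG (an E-box), TGTGGT (RUNX), GCGNGGGCG (EGR), CCGGAAG (ETS) and GGGCGG (a GC box), of which the EGR and GC box letters can overlap.
Cd5: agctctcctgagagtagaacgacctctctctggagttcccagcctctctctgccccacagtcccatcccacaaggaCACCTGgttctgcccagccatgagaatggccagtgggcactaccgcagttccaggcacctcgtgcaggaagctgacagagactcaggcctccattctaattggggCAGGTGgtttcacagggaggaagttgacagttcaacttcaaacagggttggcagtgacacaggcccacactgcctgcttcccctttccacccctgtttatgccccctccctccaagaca
Ptpn22, first start: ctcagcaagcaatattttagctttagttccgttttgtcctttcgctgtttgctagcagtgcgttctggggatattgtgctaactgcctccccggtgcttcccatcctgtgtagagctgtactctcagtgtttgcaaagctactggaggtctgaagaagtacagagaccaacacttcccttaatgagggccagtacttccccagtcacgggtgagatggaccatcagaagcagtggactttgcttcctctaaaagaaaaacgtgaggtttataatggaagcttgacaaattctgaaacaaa
Ptpn22, second start: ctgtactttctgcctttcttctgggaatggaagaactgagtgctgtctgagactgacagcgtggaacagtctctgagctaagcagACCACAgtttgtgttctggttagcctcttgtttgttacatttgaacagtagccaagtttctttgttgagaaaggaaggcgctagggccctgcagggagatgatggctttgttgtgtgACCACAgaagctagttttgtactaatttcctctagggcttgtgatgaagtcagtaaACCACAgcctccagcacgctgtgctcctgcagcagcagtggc
Ubash3a: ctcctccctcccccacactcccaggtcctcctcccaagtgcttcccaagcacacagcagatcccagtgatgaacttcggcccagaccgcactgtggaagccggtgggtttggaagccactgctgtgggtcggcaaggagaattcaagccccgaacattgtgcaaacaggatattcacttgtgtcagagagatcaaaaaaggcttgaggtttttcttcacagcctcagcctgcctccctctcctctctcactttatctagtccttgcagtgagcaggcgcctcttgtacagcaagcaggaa

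The Cd5 promoter held 2 E-box matches, beginning 174 and 69 bases before the start, and the second Ptpn22 promoter held 3 RUNX matches, beginning 165 and 48 bases before the start and at base 9 after it. The first Ptpn22 promoter and that of Ubash3a held none of the 5 motifs. Of 12 promoters listed for 8 of the 9 genes, 5 held the E-box letters and 2 the RUNX letters, while 20.2% and 16.8% of all 32851 promoters of that length did. None of the 12 held the EGR or ETS letters, which 5.55% and 8.86% of all promoters held, and 4 held a GC box, as did 35.7% of all. These are matches of letters in 1 window per start and no measure of binding.

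Each class had its own mix of the 9 genes. More of them were called between classes than between genotypes, but so were more of all genes tested. That share was 15.8 to 47.5% in the contrasts among the 5 classes and 0.0791 to 4.1% in the genotype comparisons. Class contrasts were taken within libraries and genotype comparisons between libraries, so the counts of the 2 kinds of test are not alike. In C57BL/6, Themis and Cd5 were highest in stage 0-like cells, Ptpn22 and Ptpn6 in iNKT1-like cells, Ubash3a in both of these classes, and Lck and Csk moved least. Stage 0-like cells were called against the mean of the other 4 classes for 8 of the 9 genes in C57BL/6, where 37.6% of all genes tested were called, and for 8 of 9 in Hivep3-/-, where 47% were called. The gene that was not called was Cd6 in C57BL/6 and Ptpn22 in Hivep3-/-.

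**Figure D1:**
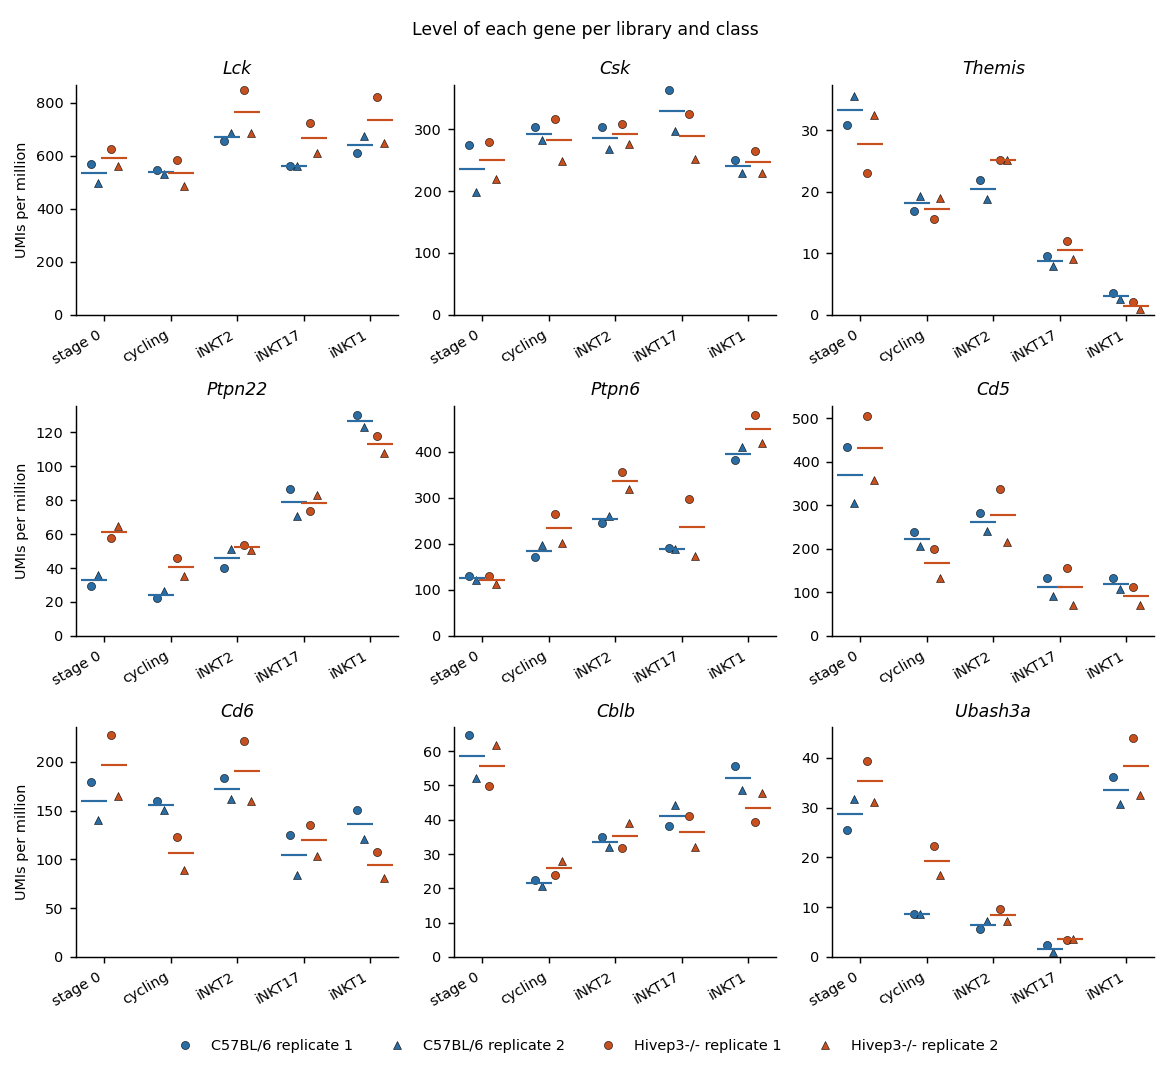
Level of each gene in CPM (vertical axis, starting at 0, a scale of its own per gene) in the 5 classes (horizontal axis). Points are libraries (blue, C57BL/6, and orange, Hivep3-/-, with circles for replicate 1 and triangles for replicate 2) and bars are the means of 2 libraries. The C57BL/6 mean of Themis is 33.3 in stage 0-like and 3.06 in iNKT1-like cells, while that of Ptpn22 is 32.7 and 127.

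Lck (ENSMUSG00000000409, chr4:129548344-129573641, minus strand, 9.41 Mb from Hivep3 on the same chromosome), the kinase that phosphorylates the TCR complex first, was nearly level. In the 5 classes it ranged from 497 to 686 CPM over the C57BL/6 libraries and from 486 to 849 over the Hivep3-/- libraries. The highest mean was 1.26 times the lowest in C57BL/6 and 1.43 times in Hivep3-/-, and in both genotypes iNKT2-like cells came first and iNKT1-like cells second, with overlapping libraries. The iNKT1-like and iNKT2-like classes were not distinguished (log2 difference -0.08, SE 0.0665, adjusted p 0.373). Lck in cycling-like cells of C57BL/6 differed from iNKT2-like cells by log2 -0.35 (SE 0.0668, adjusted p 0.000143). In stage 0-like cells it was called lower at log2 -0.29 in C57BL/6 and -0.26 in Hivep3-/- (adjusted p 0.000496 and 0.000353), but with unscaled library totals these values were 0.01 and 0.05 and neither was called. That scaling shifted the median of all genes by 0.3 and 0.31 in these comparisons, so the direction for Lck depended on it.

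Csk (ENSMUSG00000032312, chr9:57626646-57653631, minus strand), the kinase that adds the inhibitory phosphate to LCK, was also nearly level. Over the 5 classes its levels ran from 199 to 363 CPM in the C57BL/6 libraries and from 220 to 325 in the Hivep3-/- libraries. The highest class mean was 1.4 times the lowest in C57BL/6 and 1.18 times in Hivep3-/-, where all 4 pairs of neighbours in the order of means overlapped. Csk was lower in iNKT1-like than in iNKT2-like cells in both genotypes, at log2 -0.26 and -0.25 (SE 0.0762 and 0.0765, adjusted p 0.00675 and 0.0135). These calls were lost in 2 of 13 and 3 of 12 alternatives, with adjusted p up to 0.109 and 0.176. In stage 0-like cells it was called lower at log2 -0.38 in C57BL/6 and -0.24 in Hivep3-/- (adjusted p 0.000291 and 0.00387), but with unscaled totals the Hivep3-/- value turned to 0.07 and neither was called.

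Themis (ENSMUSG00000049109, chr10:28668360-28883818, plus strand), an adaptor of the TCR complex that binds the phosphatase encoded by Ptpn6, was highest in stage 0-like and lowest in iNKT1-like cells. Stage 0-like cells had 30.9 and 35.6 CPM in C57BL/6 and 23.1 and 32.5 in Hivep3-/-. In iNKT1-like cells it was at 3.54 and 2.58 in C57BL/6 and at 2.0 and 0.973 in Hivep3-/-, from 34, 23, 39 and 12 UMIs. All 4 stage 0-like values stood far above all 4 iNKT1-like values. The other classes lay between, in the order iNKT2-like, cycling-like, iNKT17-like in both genotypes, and only iNKT2-like and cycling-like cells overlapped in C57BL/6, and stage 0-like and iNKT2-like cells in Hivep3-/-. Against iNKT2-like cells, Themis in iNKT1-like cells was 6.76-fold lower in C57BL/6 (log2 -2.76, SE 0.22, adjusted p 1.86e-10) and 15.5-fold lower in Hivep3-/- (log2 -3.95, SE 0.232, adjusted p 7.36e-13).

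Cd5 (ENSMUSG00000024669, chr19:10717116-10739002, minus strand) encodes a surface receptor that damps the TCR signal, and its level on thymocytes is known to follow the strength of that signal. In stage 0-like cells it was at 435 and 306 CPM in C57BL/6 and at 506 and 359 in Hivep3-/-. In iNKT1-like cells it was at 132 and 108 in C57BL/6 and at 112 and 71.6 in Hivep3-/-. Both genotypes had every stage 0-like library above every iNKT1-like library, while the genotypes overlapped within each of these classes. The stage 0-like excess over the other 4 classes was 2.03-fold in C57BL/6 (log2 1.02, SE 0.0811, adjusted p 1.98e-10) and 2.77-fold in Hivep3-/- (log2 1.47, SE 0.0699, adjusted p 6.09e-15). iNKT1-like cells had less Cd5 than iNKT2-like cells, at log2 -1.14 in C57BL/6 and -1.6 in Hivep3-/- (adjusted p 1.28e-10 and 3.95e-13), and so did iNKT17-like cells, at -1.27 and -1.32 (adjusted p 7.65e-09 and 6.02e-09).

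Cd6 (ENSMUSG00000024670, chr19:10789341-10830058, minus strand) encodes the related receptor and lies 50.3 kb from Cd5 with no protein-coding gene between them. In C57BL/6 stage 0-like cells it was at 179 and 140 CPM, overlapping the iNKT2-like libraries at 183 and 162. In Hivep3-/- stage 0-like cells it was at 228 and 165, beside 221 and 160 in iNKT2-like cells. All 4 pairs of neighbours in the order of C57BL/6 class means overlapped, and the highest mean was 1.65 times the lowest, beside 3.29 times for Cd5. Stage 0-like cells were not called for Cd6 in C57BL/6 (log2 0.07, SE 0.086, adjusted p 0.568) and were called 1.5-fold higher in Hivep3-/- (log2 0.58, SE 0.0691, adjusted p 1.39e-07). With unscaled totals the C57BL/6 value was 0.37 and was called.

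Ptpn22 (ENSMUSG00000027843, chr3:103859795-103912247, plus strand) encodes a phosphatase that works with CSK and dephosphorylates LCK and ZAP70. In C57BL/6 it was lowest in cycling-like cells, at 22.5 and 26.2 CPM, and in stage 0-like cells, at 29.7 and 35.6. It was highest in iNKT1-like cells, at 130 and 123, with iNKT17-like cells at 86.5 and 70.9 and iNKT2-like cells at 40.3 and 51.0. No neighbours in this order overlapped. iNKT1-like cells exceeded iNKT2-like cells 2.82-fold in C57BL/6 (log2 1.49, SE 0.108, adjusted p 3.08e-11) and 2.16-fold in Hivep3-/- (log2 1.11, SE 0.111, adjusted p 1.56e-08). iNKT17-like cells also exceeded iNKT2-like cells, at log2 0.78 and 0.56 (adjusted p 0.000494 and 0.0141), and Ptpn22 was the sole gene of the 9 called higher there.

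Ptpn6 (ENSMUSG00000004266, chr6:124720707-124738714, minus strand) encodes SHP-1, a phosphatase that damps signals from many receptors of blood cells. Stage 0-like cells had 131 and 122 CPM in C57BL/6 and 131 and 113 in Hivep3-/-. In iNKT1-like cells it was at 382 and 409 in C57BL/6 and at 480 and 419 in Hivep3-/-. The stage 0-like libraries were the lowest of all classes in both genotypes and the iNKT1-like libraries the highest. Stage 0-like cells were below the other 4 classes by log2 -1.05 in C57BL/6 (SE 0.104, adjusted p 1.12e-08) and -1.4 in Hivep3-/- (SE 0.0888, adjusted p 1.67e-12).

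Cblb (ENSMUSG00000022637, chr16:52031225-52208048, plus strand), a ubiquitin ligase that raises the threshold for T cell activation, was highest in stage 0-like and iNKT1-like cells. In C57BL/6 it was at 64.7 and 52.2 CPM in stage 0-like cells, 55.6 and 48.7 in iNKT1-like cells and 22.5 and 20.8 in cycling-like cells. The first 2 classes overlapped and both stood above cycling-like cells. iNKT1-like cells exceeded iNKT2-like cells by log2 0.63 in C57BL/6 (SE 0.103, adjusted p 1.78e-05) and 0.3 in Hivep3-/- (SE 0.109, adjusted p 0.0359). The second of these calls was lost in 7 of 12 alternatives, with adjusted p up to 0.23. Among these were the alternatives that left out any 1 of the 4 libraries.

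Ubash3a (ENSMUSG00000042345, chr17:31207873-31246892, plus strand), a protein that binds CBL proteins and ubiquitin and suppresses TCR signalling, was high in stage 0-like and iNKT1-like cells and lower in the other classes. Stage 0-like cells had 25.6 and 31.8 CPM in C57BL/6 and 39.4 and 31.2 in Hivep3-/-. In iNKT1-like cells it was at 36.2 and 30.8 in C57BL/6 and at 44.0 and 32.6 in Hivep3-/-. In iNKT2-like cells it was at 5.58 and 7.16 in C57BL/6 and at 9.56 and 7.27 in Hivep3-/-. The stage 0-like and iNKT1-like libraries overlapped in both genotypes, and every one of them stood above the iNKT2-like libraries. iNKT1-like cells exceeded iNKT2-like cells 5.52-fold in C57BL/6 (log2 2.47, SE 0.15, adjusted p 1.27e-12) and 4.54-fold in Hivep3-/- (log2 2.18, SE 0.155, adjusted p 2.83e-11). In iNKT17-like cells it was counted 3 and 1 times in C57BL/6 and 4 and 4 times in Hivep3-/-, too few for a fold.

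iNKT1-like against iNKT2-like cells were called for 8 of the 9 genes in C57BL/6, where 47.5% of all genes were called, and for 8 in Hivep3-/-, where 35.1% were. Ptpn22, Ptpn6, Cblb and Ubash3a were higher in iNKT1-like cells and Themis, Csk, Cd5 and Cd6 lower, in each genotype. iNKT17-like against iNKT2-like cells were called for 7 genes in each genotype, at backgrounds of 18.9% and 15.8%. Among the 7 was Ubash3a, lower on the few UMIs given above, a call lost in 3 of 13 alternatives in C57BL/6 and 8 of 12 in Hivep3-/-. Cblb and Csk were the 2 genes not called, and the C57BL/6 count was 3 without C57BL/6 replicate 1 and 3 without replicate 2, while the Hivep3-/- count was 2 without Hivep3-/- replicate 2. Cycling-like against iNKT2-like cells were called for 6 genes in C57BL/6 and 8 in Hivep3-/-, at backgrounds of 42.3% and 41%. Ubash3a was called higher in the cycling-like cells and the other called genes were lower. In C57BL/6 the Ubash3a call was lost in 8 of 13 alternatives, with adjusted p up to 0.679 and a log2 difference of 0.23 without C57BL/6 replicate 1, while in Hivep3-/- it was kept in all 12. Without Hivep3-/- replicate 2 the Hivep3-/- count was 5.

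**Figure D2:**
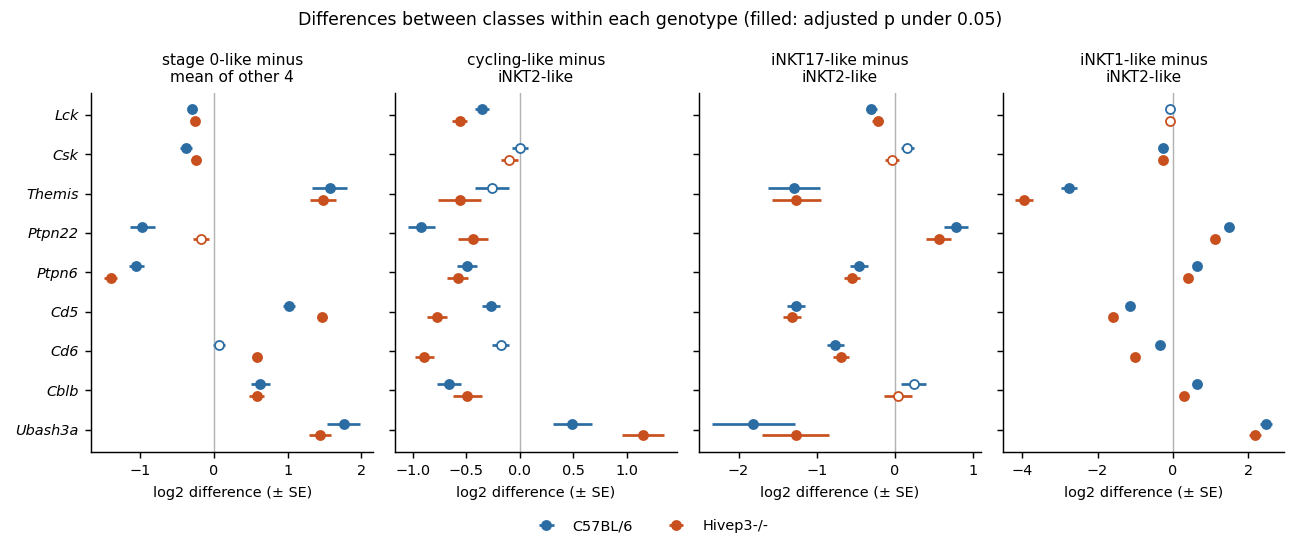
Log2 difference between classes (horizontal axis, with the standard error) for each gene in C57BL/6 (blue) and Hivep3-/- (orange). Filled points had an adjusted p under 0.05. Ubash3a, at 2.47 and 2.18, and Themis, at -2.76 and -3.95, lie at opposite ends in the comparison of iNKT1-like with iNKT2-like cells. The small stage 0-like differences of Lck and Csk, and that of Cd6 in C57BL/6, are among those whose calls changed with the scaling of library sizes.

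Among iNKT1-like cells, the cluster led by Ccl5 and Gzma, called late here, made up 16.0 and 14.3% of that class in C57BL/6 and 25.8 and 32.0% in Hivep3-/-. Cd5 was lower in these late cells, at 73.9 and 46.0 CPM against 132 and 108 in the other iNKT1-like cells of C57BL/6. In Hivep3-/- it was at 55.7 and 36.4 against 119 and 79.0. The 2 groups of cells did not overlap in either genotype. The log2 difference was -0.98 in C57BL/6 (SE 0.107, adjusted p 2.8e-07) and -1.1 in Hivep3-/- (SE 0.0775, adjusted p 5.71e-11). Cd6 was lower too, by log2 -0.55 and -0.93 (adjusted p 0.000388 and 1.66e-09), and Ptpn6 by -0.27 and -0.34 (adjusted p 0.0015 and 2.41e-06), although the Ptpn6 call in C57BL/6 was lost in 4 of 13 alternatives and its value was 0.1 at a finer clustering. In all, 3 of the 9 genes were called in C57BL/6, at a background of 7.38%, and 5 in Hivep3-/-, at 15%, the other 2 being Lck and Ubash3a, both higher. Of these, Lck lost its call in 5 of 12 alternatives, with a value of -0.03 at the finer clustering, and Ubash3a in 3 of 12. The C57BL/6 count was 1 without C57BL/6 replicate 1, and the Hivep3-/- count was 3 without Hivep3-/- replicate 2. Themis had 2, 0, 3 and 3 UMIs in the late cells of the 4 libraries.

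Between genotypes, few of the 9 genes were called in any class. Ubash3a was called in cycling-like cells, where 4.1% of all genes tested were called, and none of the other 8 genes was. None of the 9 was called in stage 0-like cells, at a background of 0.438%, in iNKT2-like cells, at 0.453%, or in iNKT1-like cells, at 0.721%. Neither was any of the 8 tested in iNKT17-like cells, at 0.0791%, or of the 9 over all cells together, at 0.765%. At an unadjusted p under 0.05 there was 1 of 9 in stage 0-like cells, 3 in cycling-like cells, 1 in iNKT2-like cells, 0 of 8 in iNKT17-like cells, and 1 each in iNKT1-like cells and over all cells. The share of all genes tested at that threshold was, in the same order, 8.63, 19.1, 9.89, 5.58, 8.43 and 12%. DESeq2 called none of the 9 in any class.

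Ubash3a in cycling-like cells was at 8.68 and 8.63 CPM in C57BL/6 and at 22.3 and 16.4 in Hivep3-/-, from 121, 51, 59 and 85 UMIs. Both Hivep3-/- libraries were above both C57BL/6 libraries. The difference was 2.21-fold (log2 1.14, SE 0.242, adjusted p 0.0446), and the adjusted p passed 0.05 in 7 of the 14 alternatives, where the log2 difference kept its direction. Without C57BL/6 replicate 1 it was 1.15 (adjusted p 0.0708), without Hivep3-/- replicate 1 it was 0.92 (adjusted p 0.15), and without Hivep3-/- replicate 2 it was 1.36 (adjusted p 0.0626). The cycling-like class joined 4 clusters in unequal shares: the cluster led by Hells and Mcm3 held 52.9 and 49.1% of it in C57BL/6 and 45.5 and 34.9% in Hivep3-/-, and a small cluster led by Hist1h2ap and Mki67 held 0.853 and 2.03% in C57BL/6 and 12.8 and 4.43% in Hivep3-/-. That small cluster had the highest Ubash3a levels of the 4 clusters in every library, though from only 2, 4, 18 and 8 UMIs. In the Hells cluster alone Ubash3a was at 9.95 and 10.7 in C57BL/6 and at 21.8 and 13.3 in Hivep3-/-, with both Hivep3-/- libraries above both C57BL/6 libraries (log2 0.74, adjusted p 0.321). In the cluster led by Ccnb2 and Cenpa it was at 8.97 and 4.73 against 18.1 and 14.7, from 31, 7, 8 and 14 UMIs. In the cluster led by Hist1h2ap and Pclaf it was at 7.6 and 9.26 against 16.1 and 21.5, from 19, 11, 8 and 42 UMIs. Neither of these clusters was tested alone.

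Ptpn22 in stage 0-like cells was at 29.7 and 35.6 CPM in C57BL/6 and at 58.0 and 65.0 in Hivep3-/-, from 51, 28, 181 and 194 UMIs. Both Hivep3-/- libraries stood above both C57BL/6 libraries. The difference was 1.96-fold (log2 0.97, SE 0.211) and missed the threshold at an adjusted p of 0.0864, with an unadjusted p of 0.000694. It was called without Hivep3-/- replicate 1 (log2 1.03, adjusted p 0.0329) and with a replicate block (log2 0.96, adjusted p 0.0054), and was 0.81 without C57BL/6 replicate 1 (adjusted p 0.349). In cycling-like cells Ptpn22 was at 22.5 and 26.2 in C57BL/6 and at 46.2 and 35.2 in Hivep3-/- (log2 0.74, SE 0.203, adjusted p 0.1), which passed without a filter on low counts and with a cell filter of at least 200 genes and under 10% mitochondrial UMIs (adjusted p 0.0159 and 0.0428), while in iNKT1-like cells the order was turned, at 130 and 123 against 118 and 108 (log2 -0.17, SE 0.127, adjusted p 0.831).

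The other 7 genes had no call between genotypes in any class. Cd6 in cycling-like cells was at 160 and 151 CPM in C57BL/6 and at 123 and 89.5 in Hivep3-/- (log2 -0.56, SE 0.174, adjusted p 0.136), and in iNKT1-like cells at 151 and 121 against 108 and 80.7 (log2 -0.53, SE 0.187, adjusted p 0.442). The libraries of the genotypes did not overlap in either class, and the cycling-like value passed without a filter on low counts (adjusted p 0.0149). Neither did those of Ubash3a, Ptpn22, Ptpn6, Cd5 and Cblb overlap in cycling-like cells, or those of Ptpn22, Ptpn6, Cblb and Themis in iNKT1-like cells. How often this holds over all genes was not counted. Themis in iNKT1-like cells was lower in both Hivep3-/- libraries, at the levels given above (log2 -0.99, SE 0.432, adjusted p 0.597). Ptpn6 in iNKT2-like cells was at 246 and 260 in C57BL/6 and at 355 and 318 in Hivep3-/- (log2 0.43, SE 0.125, adjusted p 0.26). Lck differed most in iNKT17-like cells (log2 0.27, SE 0.164, adjusted p 0.939), and Csk likewise (log2 -0.17, SE 0.193, adjusted p 0.977). Unscaled totals moved the median gene by 0.07 to 0.16 between genotypes. Over all cells together, where the mix of classes and the level within each class cannot be told apart, Ubash3a was at 15.1 and 17.2 in C57BL/6 and at 32.7 and 21.5 in Hivep3-/- (log2 0.75, SE 0.231, adjusted p 0.253).

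**Figure D3:**
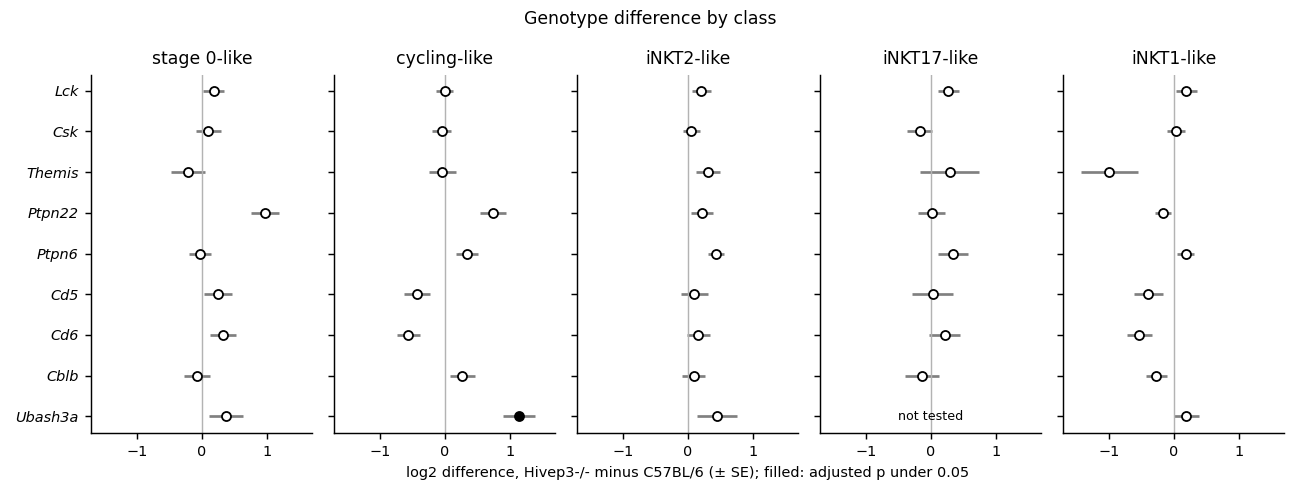
Log2 difference between Hivep3-/- and C57BL/6 (horizontal axis, with the standard error) for each gene in the 5 classes. The filled point, Ubash3a in cycling-like cells at 1.14, is the value with an adjusted p under 0.05, and Ubash3a was not tested in iNKT17-like cells. Cd5 and Cd6 lie to the right of 0 in stage 0-like cells and to the left of 0 in cycling-like and iNKT1-like cells.

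Whether the genotype difference itself changed with the class was asked by an interaction test over all 5 classes, with each library as a block. It was called for 4 of the 9 genes, Ptpn22, Cd5, Cd6 and Ubash3a (adjusted p 0.00109, 0.00168, 1.2e-05 and 0.023), where 11.1% of all genes were called. In the direct comparison of stage 0-like with iNKT1-like cells 3 of the 9 were called, where 2.56% of all genes were, and each had a more positive genotype difference in stage 0-like cells. For Cd6 the genotype difference was 0.32 in stage 0-like and -0.53 in iNKT1-like cells, a gap of 0.85 (SE 0.127, adjusted p 0.00027) that was called in each of 14 alternatives. For Cd5 it was 0.25 and -0.39, a gap of 0.65 (SE 0.132, adjusted p 0.00601). It was 0.79 without C57BL/6 replicate 1 and still called (adjusted p 0.0273), and not called at 0.56 without C57BL/6 replicate 2 (adjusted p 0.112) or at 0.42 without correction between libraries (adjusted p 0.401). For Ptpn22 it was 0.97 and -0.17, a gap of 1.14 (SE 0.214, adjusted p 0.00291). It was not called at 0.96 without C57BL/6 replicate 1 (adjusted p 0.149) or at 0.85 without correction between libraries (adjusted p 0.0703). For Ubash3a the gap between these 2 classes was 0.2 (adjusted p 0.775), and its interaction was lost in 6 of 14 alternatives, among them those without C57BL/6 replicate 1, without Hivep3-/- replicate 1 and without Hivep3-/- replicate 2 (adjusted p 0.228, 0.153 and 0.239). Without C57BL/6 replicate 1 the test over 5 classes called 2 of the 9 genes, and without correction between libraries it also called 2. The iNKT1-like class was made up differently in the genotypes: the late cluster, low in Cd5 and Cd6, was a larger part of it in Hivep3-/-, and the cluster led by Fgl2 and Rgs1 made up 60.9 and 55.7% in C57BL/6 and 42.3 and 40.6% in Hivep3-/-. With the late cluster left out the gaps were 0.72 for Cd6, 0.53 for Cd5 and 1.16 for Ptpn22 (adjusted p 0.00148, 0.0287 and 0.00244). With the Fgl2 and Rgs1 cluster as the sole iNKT1-like cells they were 0.63, 0.44 and 1.18, and the Cd5 gap was then not called (adjusted p 0.00668, 0.111 and 0.00156).

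Other genes of the pathway were counted as 2 whole lists, 26 dampers of the TCR signal and 20 carriers of it. The lists were chosen with earlier results of these data known, and the dampers include Ubash3b. Their calls are therefore no independent support. Among dampers, stage 0-like cells differed between genotypes for 1 of 24 tested, Ubash3b, and cycling-like cells for 6 of 26, with Ubash3b, Dgka, Ptprc and Rasa2 higher and Sit1 and Dusp2 lower. The stage 0-like count was 6 of 24 without Hivep3-/- replicate 2 and also 6 with a replicate block, and the cycling-like count was 3 without Hivep3-/- replicate 1, 4 without Hivep3-/- replicate 2 or C57BL/6 replicate 1, and 8 without a filter on low counts. The median log2 difference of the dampers was 0.159 in stage 0-like and 0.0615 in cycling-like cells, beside 0.02 and 0.026 over all genes tested. Among carriers there was 0 of 19 in stage 0-like cells and 1 of 20 in cycling-like cells, Rasgrp1, which was higher. Of all genes tested, 0.438% were called in stage 0-like cells and 4.1% in cycling-like cells. At an unadjusted p under 0.05 there were 8 of 24 dampers and 4 of 19 carriers in stage 0-like cells, where 8.63% of all genes tested were. In cycling-like cells there were 12 of 26 dampers and 4 of 20 carriers at that threshold, where 19.1% of all genes tested were. Neither list had a call in iNKT2-like, iNKT17-like or iNKT1-like cells by edgeR's test, although 8 of 25, 3 of 23 and 7 of 26 dampers and 2 of 20, 0 of 19 and 3 of 20 carriers had an unadjusted p under 0.05 there, beside 9.89, 5.58 and 8.43% of all genes. DESeq2 called 1, 0 and 0 dampers and 0, 0 and 1 carriers in these classes. By edgeR's test, 3 dampers and 2 carriers were called in iNKT1-like cells without Hivep3-/- replicate 2, and without a filter on low counts 5 dampers were called in iNKT1-like and 5 in iNKT2-like cells, with 2 carriers in iNKT1-like cells. In iNKT2-like cells 2 dampers were called with a replicate block and 1 without C57BL/6 replicate 1, C57BL/6 replicate 2 or Hivep3-/- replicate 2. In iNKT17-like cells 1 damper was called without Hivep3-/- replicate 2 and 1 carrier without C57BL/6 replicate 2. The shares of all genes called under these alternatives are not given here, so the counts under them have no background beside them. In the interaction test 14 of 26 dampers and 6 of 20 carriers were called, beside 11.1% of all genes.

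Ubash3b, the relative of Ubash3a and a phosphatase that acts on ZAP70, was called in both classes. In stage 0-like cells it was at 10.5 and 8.91 CPM in C57BL/6 and at 66.7 and 75.4 in Hivep3-/-, from 18, 7, 208 and 225 UMIs. In cycling-like cells it was at 37.6 and 33.0 in C57BL/6 and at 112 and 114 in Hivep3-/-. Both Hivep3-/- libraries stood well above both C57BL/6 libraries in each class. The log2 difference was 2.86 in stage 0-like cells (SE 0.254, adjusted p 0.00035), 1.68 in cycling-like cells (SE 0.147, adjusted p 0.00168) and 0.95 over all cells (SE 0.136, adjusted p 0.0411), where leaving out any 1 of the 4 libraries ended the call. It was 0.57 in iNKT1-like cells (SE 0.135, adjusted p 0.175), and the gap between stage 0-like and iNKT1-like cells was 2.29 (SE 0.273, adjusted p 1.44e-05). The 2 relatives differed over the classes of C57BL/6, since Ubash3b was lower in stage 0-like cells than in the other 4 classes (log2 -2.44, SE 0.224, adjusted p 2.56e-09) and Ubash3a was higher (log2 1.76, SE 0.226, adjusted p 7.43e-07).

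**Figure D4:**
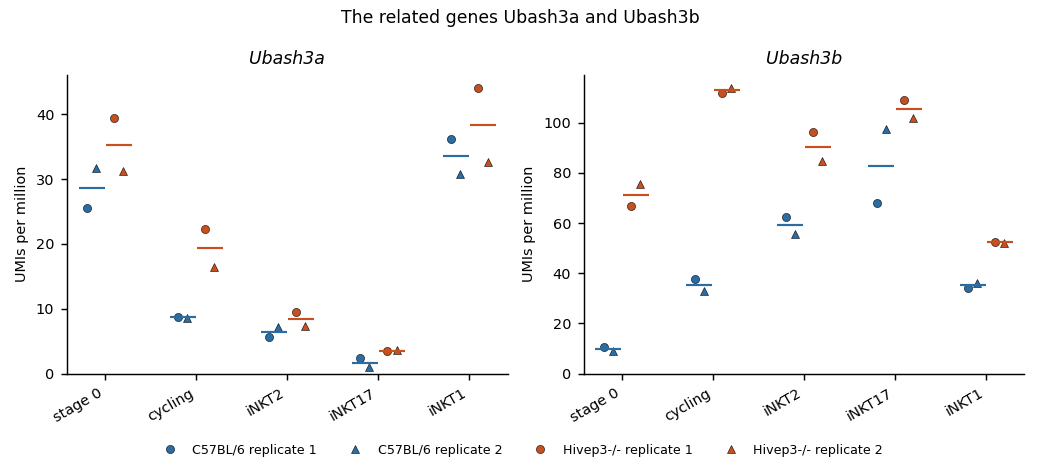
Levels of Ubash3a (left) and Ubash3b (right) in CPM (vertical axes starting at 0) by class and library, with bars at the means of 2 libraries. In stage 0-like cells Ubash3b is at 10.5 and 8.91 in C57BL/6 and at 66.7 and 75.4 in Hivep3-/-, while the Ubash3a libraries of the 2 genotypes overlap there.

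Among the other pathway genes called in cycling-like cells, Dgka, a kinase that ends diacylglycerol signals, was at 62.5 and 68.8 CPM in C57BL/6 and at 140 and 130 in Hivep3-/- (log2 1.05, SE 0.138, adjusted p 0.00872). Sit1, an inhibitory transmembrane adaptor, was at 63.8 and 63.6 against 33.7 and 28.6 (log2 -1.04, SE 0.162, adjusted p 0.0152). Dusp2, a phosphatase of MAP kinases, was at 351 and 317 against 186 and 223 (log2 -0.7, SE 0.134, adjusted p 0.0312). Rasgrp1, which activates RAS after TCR engagement, was at 25.2 and 29.8 against 45.8 and 54.9 (log2 0.89, SE 0.179, adjusted p 0.0355), a call lost in 6 of 14 alternatives, among them each that left out C57BL/6 replicate 1, Hivep3-/- replicate 1 or Hivep3-/- replicate 2 (adjusted p 0.114, 0.0678 and 0.131). The libraries of these 4 did not overlap between genotypes, but the genes are named because of these same calls, so this adds no support.

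Over the classes of C57BL/6 the lists moved with the 9 genes in part. Against the mean of the other classes, 22 of 26 dampers were called in stage 0-like cells, 7 higher and 15 lower, and 13 of 20 carriers, 4 higher and 9 lower, with list medians of log2 -0.674 and -0.311 beside -0.058 over all genes. Ptprc, Dgkz, Spry1, Dusp6, Dgka, Rasa2 and Sla were the dampers called higher. In iNKT1-like against iNKT2-like cells 20 dampers were called, 16 higher and 4 lower, and 14 carriers, 12 higher and 2 lower, with medians of 0.533 and 0.29 beside 0.012. In iNKT17-like against iNKT2-like cells 14 dampers were called, 9 higher and 5 lower, and 10 carriers, 7 higher and 3 lower. In cycling-like against iNKT2-like cells 18 dampers and 16 carriers were called, all of them lower, with medians of -0.503 and -0.418 beside -0.046. In Hivep3-/- the same contrasts called 20, 16, 13 and 18 dampers and 12, 9, 9 and 14 carriers, in the order stage 0-like, iNKT1-like, iNKT17-like and cycling-like. The share of all genes called was, in that order, 37.6, 47.5, 18.9 and 42.3% in C57BL/6 and 47, 35.1, 15.8 and 41% in Hivep3-/-.

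The 9 patterns over the 20 sums of 4 libraries and 5 classes were compared with each other as a description, since the points share libraries, depth and mice. Cd5 and Cd6 were the most alike (Pearson r 0.87), followed by Cd5 and Themis (0.81), Lck and Ptpn6 (0.7), and Cd6 and Themis (0.62). Ptpn22 ran opposite to Themis (-0.78) and to Cd5 (-0.6), Ptpn6 opposite to Themis (-0.7), and Ubash3a opposite to Csk (-0.62). Of about 5314 other genes that averaged 20 CPM or more, the 2 with the highest r were Bcl2 and Cd2 for Ubash3a (0.956 and 0.944), Parp4 and Pcmtd1 for Ptpn22 (0.934 and 0.932), H2-T22 and Padi2 for Ptpn6 (0.975 and 0.974) and Cd28 and Bdh1 for Cd5 (0.925 and 0.909). These were Cd5 and Asap1 for Cd6 (0.875 and 0.843), Rapgef6 and D5Ertd579e for Cblb (0.93 and 0.924), Rnf123 and Gbp8 for Lck (0.881 and 0.866), Dap3 and Plscr3 for Themis (0.945 and 0.94) and Pias4 and Tars2 for Csk (0.859 and 0.817).

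**Figure D5:**
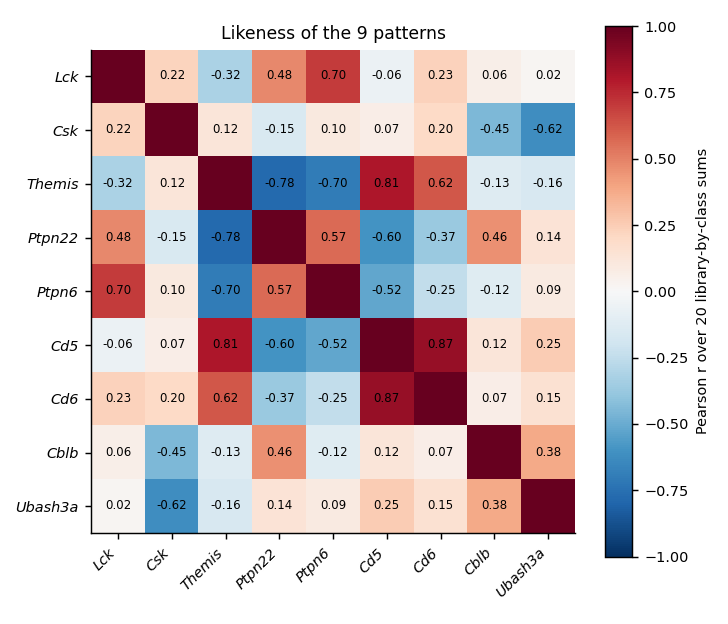
Pearson r between the 9 genes over 20 sums (4 libraries by 5 classes) of log2 CPM plus 1, red for positive and blue for negative values. Cd5, Cd6 and Themis form 1 positive block, with r from 0.62 to 0.87, and Ptpn22 and Ptpn6 have negative values with each of them, from -0.25 to -0.78.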

How the data were processed

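Thymic iNKT cells of 4 mice were profiled with droplet 5' chemistry. The deposited values were raw UMI counts per gene and barcode that the authors made with no normalization on mm10, and the submitters' processing notes name Cell Ranger 3.1.0 and Seurat 3.1.4. Here cells with at least 500 and under 4100 genes, at least 1000 UMIs and under 6% mitochondrial UMIs were kept, after the study's thresholds. Scrublet in scanpy 1.11.5 marked 0 to 5 cells per library and had not worked, so no doublets were removed in the values reported. Clusters came from Seurat 5.3.0 in R 4.3.3 (2000 variable genes, 30 principal components, mutual nearest neighbour correction, Louvain resolution 0.8). The 9 genes, both pathway lists, Hivep3, 26 genes that the study names, genes of sex and TCR segments took no part in clustering. A cluster took the "-like" name whose markers were most frequent in its top 20 genes by fold, if there were 2 or more, and interferon clusters were counted as iNKT1-like. This scoring rule was made with the data in view.

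Counts were summed per library and class, since cells are not replicates, and tested with edgeR 4.0.16 (quasi-likelihood, two-sided, filterByExpr, TMM scaling, Benjamini-Hochberg adjustment over all genes tested). Class and interaction tests used 1 model over the 20 sums with library as a block, and levels are on TMM-scaled sizes. Log2 differences are Hivep3-/- over C57BL/6 or the first class over the second. With 2 mice per genotype the p-values of the genotype comparisons measure the spread of these 4 libraries. Those of the class and interaction tests measure the spread left over classes within libraries, since library was a block. Counting error shrinks with the number of UMIs given beside low values.

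The genes and lists were chosen with earlier results of these data known. The rule named all 9 genes, up to 5 called genes of the pathway lists per class and the 2 genes of most like pattern for each. Positions came from GENCODE vM21 (GRCm38), which held 30934 of the 31053 identifiers. Alternatives were DESeq2 1.42.0, unscaled library totals, no low-count filter, each library left out, resolutions 0.4 and 1.2, no correction between libraries, another cell filter (at least 200 genes and under 10% mitochondrial UMIs), the 5% highest doublet scores removed, a replicate block, the C57BL/6 libraries alone and the largest cluster of a class. For the interaction, the iNKT1-like class was also held to its largest cluster or stripped of its late cluster, both chosen after seeing the data. Shares of cells with a UMI were left out, because no cluster gave a background for them.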

Additional observations from a re-analysis of the deposited data

Results flagged for a closer look

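In 4 of the 9 genes the genotype difference itself differed between classes by the interaction test. The genotype difference in stage 0-like cells exceeded that in iNKT1-like cells by 1.14 on the log2 scale for Ptpn22 (adjusted p 0.00291), by 0.65 for Cd5 (adjusted p 0.00601), a gap lost in 3 of 14 alternatives, and by 0.85 for Cd6 (adjusted p 0.00027). For Ubash3a the test over all 5 classes passed (adjusted p 0.023) but was lost in 6 of 14 alternatives, while the gap between these 2 classes did not. Stage 0-like cells of C57BL/6 replicate 1 were the shallowest, with a median of 3350 UMIs per cell against 5166 to 5640 in the other libraries, and the part of depth in these gaps was not tested. With 2 libraries per genotype, no library was tested for standing apart from its group.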

How the results depend on the processing

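Counts of the 9 genes called are given here, without the share of all genes called under each alternative. With 1 library left out they ranged from 0 to 1 between genotypes in stage 0-like and in cycling-like cells, from 3 to 7 (C57BL/6) and 2 to 6 (Hivep3-/-) for iNKT17-like against iNKT2-like cells, from 5 to 8 for cycling-like against iNKT2-like cells of Hivep3-/-, from 1 to 3 (C57BL/6) and 3 to 5 (Hivep3-/-) for late iNKT1-like cells, and from 2 to 3 for the interaction. In cycling-like cells the genotype count was 0 with DESeq2, resolution 0.4, the highest doublet scores removed or the largest cluster alone, 3 without a filter on low counts and 2 with the other cell filter; over all cells it was 1 without the filter. Unscaled totals gave 5 calls for cycling-like against iNKT2-like cells of Hivep3-/-, and DESeq2 gave 3 for its late cells. Without correction between libraries the interaction count was 2 and the stage 0-like against iNKT1-like count 1.

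With a replicate block the genotype count in stage 0-like cells was 1, Ptpn22 (log2 0.96, adjusted p 0.0054), and the block changed no other call of the 9 genes. Same-numbered libraries deviated together only weakly (correlations of 0.0009 to 0.175 over genes), there are 2 pairs, and the labels do not link the numbers, so the numbers were not taken to pair the mice, and what same-numbered libraries shared is not known.

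Signs turned for Lck in stage 0-like cells with unscaled totals (0.01 in C57BL/6, 0.05 in Hivep3-/-), for Csk there in Hivep3-/- (0.07), and in late iNKT1-like cells at resolution 1.2, where another cluster joined them, for Ptpn6 in C57BL/6 (0.1) and for Ptpn22 and Lck in Hivep3-/- (-0.32 and -0.03). Unscaled totals moved the median gene by 0.07 to 0.16 between genotypes. The cause was not tested. Over single genes and alternatives, 102 of 2077 values lost their call, 18 gained one and 88 signs turned between values never called. Calls on under 20 UMIs, as for Themis and Ubash3a in iNKT17-like cells, are limited by depth.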

Other observations

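The clusters left unnamed carried the 9 genes in mixes of their own. The largest of them, led by Izumo1r and Junb (1777 cells), had Ptpn22 at 141 and 143 CPM in C57BL/6 and 129 and 117 in Hivep3-/-, and Themis at 5.61, 7.45, 3.99 and 4.81 in the same order. The second, led by Tnni1 and Htra3 (901 cells), had Themis at 29.5 and 22.9 in C57BL/6 and 28.0 and 29.2 in Hivep3-/-. In that cluster Cd5 was at 282 and 243 in C57BL/6 and at 175 and 138 in Hivep3-/-, and Cd6 at 173 and 183 against 120 and 99.2, while Ptpn22 was at 52.9 and 43.5 against 76.7 and 77.3. Neither cluster was tested between genotypes.

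Cd5, Cd6 and Csk were higher in the library numbered 1 than in the one numbered 2 in each of 10 pairs of genotype and class, with median log2 ratios of 0.524, 0.401 and 0.246. For the other 6 genes the library numbered 1 was higher in 5 to 7 of the 10 pairs. The 10 pairs share the same 4 libraries, 2 per genotype, so they are not separate comparisons. C57BL/6 replicate 1 is the library with Xist, and the labels do not say what the replicates shared.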
